A study of Mus musculus with 15 samples.

Results

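The genes described here are Myc, its partner Max, the MXD repressors Mxd1, Mxd3, Mxd4 and Mxi1, the related factors Mlx and Mlxip (MondoA), and the MondoA targets Txnip and Arrdc4. These 10 genes were chosen by name, out of 55291 genes listed in each of the 3 comparison tables, and were set side by side in each comparison. All 10 were present in every table and had a mean value of at least 10 in each, so none was lost to the filter on low values. The samples were bulk RNA-seq libraries in 5 groups of 3, all derived from HY19636. HY19636 is a murine pancreatic ductal adenocarcinoma (PDAC) line from a genetically engineered C57BL/6 mouse with p53 L/+ and Ptf1a-Cre, which directs recombination to the pancreatic lineage, and every group shared this background. Control cells were grown in DMEM with serum, DON cells received the Gln antagonist DON at 25 µM for 24 h, and Gln-free cells were kept without Gln for 24 h. Tumors grew in the pancreas of female B6J mice, 8 to 10 weeks old by the methods, given vehicle or DRP-104, a prodrug of DON, which the methods give at 3 mg per kg in 2 cycles of 5 days on and 2 days off. A single line was used, so differences between lines were not sampled. The 3 control libraries were the same in both culture tables, with equal reads for 55291 of 55291 genes.

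MYC is a transcription factor that binds DNA as a dimer with MAX, most often at the E-box CACGTG, and raises genes of growth, ribosome production and metabolism. The MXD proteins (MXD1, MXI1, MXD3 and MXD4) compete for MAX and bring SIN3 and histone deacetylases to the same sites, so they oppose MYC. In the parallel arm, MondoA (Mlxip) pairs with MLX, senses phosphorylated sugars and other fuels, and raises TXNIP and ARRDC4, alpha-arrestins that restrain glucose uptake. Gln availability is a known input to MondoA, and TXNIP is often read as its reporter.

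The promoters of the MondoA targets are shown because both genes carry a match to the motifs of these families and both rose without Gln. Of the 10 genes, 9 (all but Myc) had a promoter entry in RefSeq on GRCm38.p6, in 11 windows that run from 250 bases before to 50 bases after a start site, written 5′ to 3′ on the gene's strand. The motifs searched on both strands were the E-box CACGTG and a carbohydrate response element-like pair, CACGNG followed after 5 bases by CACGNG or CNCGTG. The E-box is itself a match to CACGNG, so the motifs can overlap. In Txnip (chr3:96557707-96558006, plus strand) the capitals mark the pair, and in Arrdc4 (chr7:68749189-68749488, minus strand) they mark the E-box.
Txnip: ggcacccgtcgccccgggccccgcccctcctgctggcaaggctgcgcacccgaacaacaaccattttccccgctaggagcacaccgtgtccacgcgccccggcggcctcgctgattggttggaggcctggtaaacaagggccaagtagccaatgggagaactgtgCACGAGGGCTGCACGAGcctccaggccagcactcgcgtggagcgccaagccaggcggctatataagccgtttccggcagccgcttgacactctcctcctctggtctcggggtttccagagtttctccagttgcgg
Arrdc4: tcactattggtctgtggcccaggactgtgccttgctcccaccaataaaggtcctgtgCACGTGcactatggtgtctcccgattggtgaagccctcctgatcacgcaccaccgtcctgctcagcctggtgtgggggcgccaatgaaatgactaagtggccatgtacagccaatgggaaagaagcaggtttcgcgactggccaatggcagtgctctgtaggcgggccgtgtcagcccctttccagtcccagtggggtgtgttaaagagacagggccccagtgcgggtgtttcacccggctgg
Txnip held the only pair among the 11 windows, at bases -85 to -69 from its start site counted as 0, and it read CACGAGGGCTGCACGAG. Among all 32851 windows of the table, 24 held such a pair, a share of 0.0731%. The E-box was found in 4 of the 11 windows, each of another gene, at -193 to -188 in Arrdc4, -219 to -214 in Mxd4, -40 to -35 in Mlx and -3 to 2 in Max, against 7.15% of all windows. No match to these letters lay in the windows of Mxd1, Mxd3, Mlxip or the 3 starts of Mxi1. A match describes letters in these windows and not a bound site. On GRCm38 the genes themselves lie at chr15:61985341-61990374 (Myc, ENSMUSG00000022346, plus strand), chr3:96557957-96561883 (Txnip, ENSMUSG00000038393, plus strand) and chr7:68737045-68749241 (Arrdc4, ENSMUSG00000042659, minus strand), as the FPKM table gives them. No annotated gene overlaps Myc or Arrdc4. Max, Mxd1, Mxd3, Mxd4, Mxi1, Mlx, Mlxip and Txnip each overlap at least 1 other annotated gene.

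**Figure D1:**
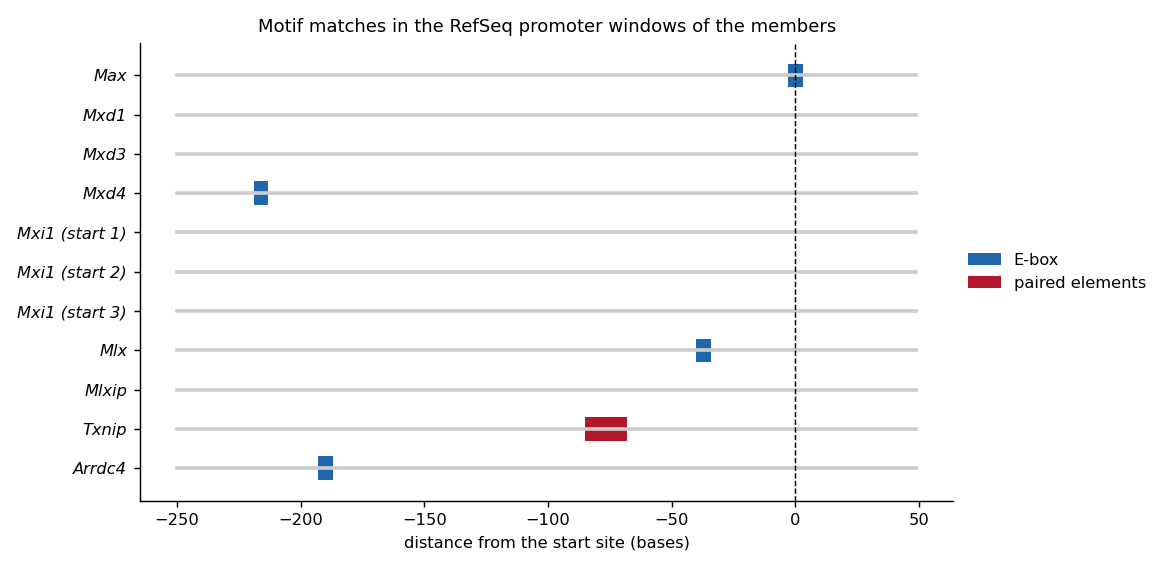
Motif matches in the promoter windows of the 9 genes with a RefSeq entry, by distance from the start site in bases (gray line, the window; blue, E-box; red, paired elements). The pair stands in Txnip alone, at -85 to -69, and 4 genes hold an E-box, nearest to the start in Max.

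Depth ran from 25.2 to 48.2 M reads over cultures and from 16.3 to 20.7 M over tumors. Values below are deposited normalized counts (reads of a gene over the library's size factor), tested as log2(value + 1) with limma across all genes, with Benjamini-Hochberg adjustment and a call at an adjusted p under 0.05. The p-values measure the spread between cultures or between mice, and in the interaction tests below a pool of both. Whether the cultures were set up separately was not given in the sources used here. In culture, 7 of 7 epithelial markers were detected in every library. The epithelial marker sum was 119538 to 127805 after DON and 159380 to 174710 without Gln, against 390395 to 524749 in controls on the scales of their tables. Cd3e and Lyz2 were at 0, but other markers of their kind were not. Over the cultures Lck was at 33.6 to 130, Trac at 13.1 to 78.0 and the fibroblast marker Pdgfra at 123 to 1102. The sum of the 5 T cell markers was 55.4 to 166 in cultures. Of the myeloid markers only Cd68, which also encodes a lysosomal protein of other cells, was high after DON (798 to 847, against 47.4 to 79.9 in controls). All 7 markers of fibroblasts and of myeloid cells were detected in each tumor.

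Among the 10 genes, 9 changed after DON (6 higher, 3 lower), 8 without Gln (5 higher, 3 lower) and 0 in DRP-104 tumors. Of all genes tested, 68.1% were called after DON (33.3% higher, 34.7% lower), 69.4% without Gln (34.5% higher, 34.9% lower) and 0% in tumors, so the shares of these genes called were not far from those of genes in general. What differed between the treatments was which genes moved and in which direction. Myc rose in both cultures, more without Gln. Txnip fell after DON and rose without Gln, and Mxd4 and Mxi1 did the reverse.

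**Figure D2:**
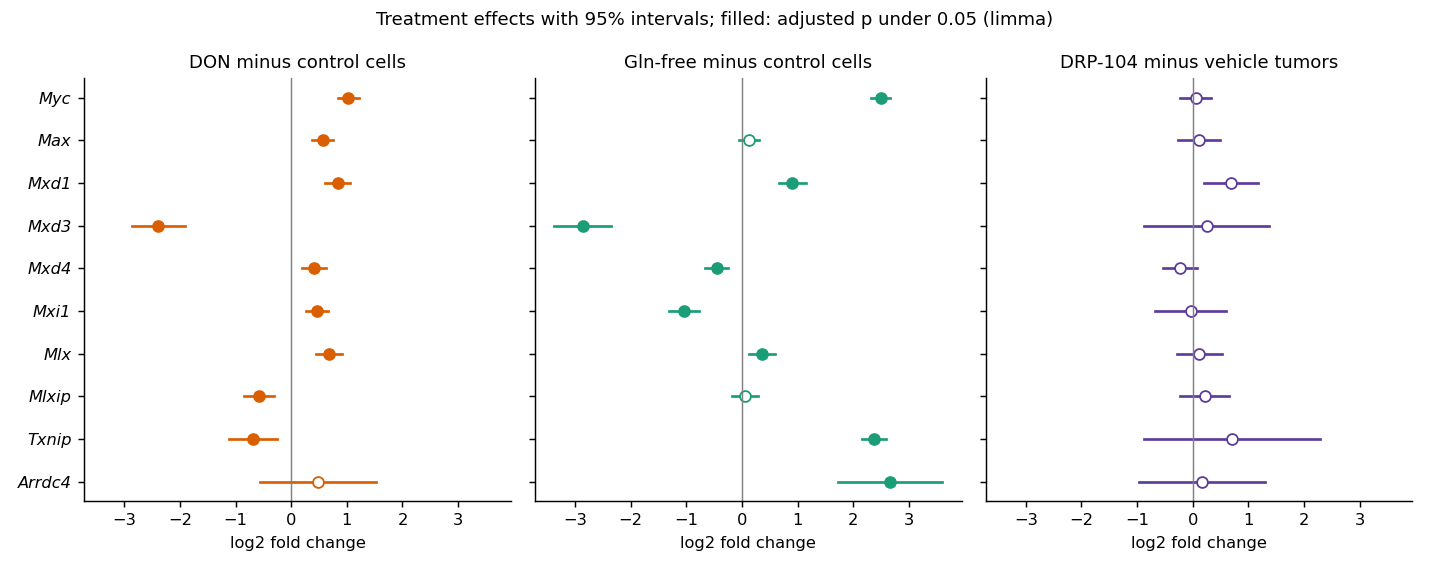
Log2 fold changes with 95% intervals of the 10 genes in the 3 treatment comparisons (filled points, adjusted p under 0.05 by limma). Txnip, Mxd4 and Mxi1 lie on opposite sides of 0 after DON and without Gln, Mxd3 is far below 0 in both cultures, and no point is filled in the tumors.

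Myc, which encodes the growth-promoting member, was the most abundant of the 10 per kilobase in all groups other than the DRP-104 tumors. In the DON table it was at 8189, 9025 and 8600 in DON cells and at 4420.3, 4364 and 3899 in controls. The groups did not overlap, and Myc rose 2.04-fold (log2 1.03, SE 0.0883, limma adjusted p = 1.67e-07). In the Gln-free table it was at 23557, 22475 and 21809 without Gln and at 4166, 4122 and 3760.3 in controls. Every Gln-free culture was above 5 times the highest control, and the rise was 5.63-fold (log2 2.49, SE 0.0802, adjusted p = 1.37e-10). In tumors it was at 3026, 3166 and 3324 with DRP-104 and at 2955, 3136 and 3089 with vehicle. These ranges overlapped, and the log2 difference was 0.05 with a 95% interval of -0.23 to 0.33 (adjusted p = 0.971), so the rises seen in culture lay outside the interval in tumors.

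Max, the dimerization partner of MYC and the MXD proteins, moved less. After DON it was at 3383, 3712 and 3689.6, against 2530.2, 2358 and 2375 in controls, and rose 1.48-fold (log2 0.57, SE 0.0875, adjusted p = 5.34e-05). In Gln-free cells it was at 2634, 2521 and 2421, against 2385, 2227 and 2291. The Gln-free cultures all lay above the controls, yet the log2 difference of 0.13 was not called (95% interval -0.05 to 0.31, adjusted p = 0.165). In tumors Max was at 1244, 1150.1 and 1646 with DRP-104 and at 1237, 1212 and 1233 with vehicle, and DRP-104 tumor 3 stood above the other 5.

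Of the MXD repressors, Mxd1 was the one that rose in both cultures. It was at 1213, 1213 and 1160.2 after DON and at 685, 624 and 698 in controls, a 1.79-fold rise (log2 0.84, SE 0.104, adjusted p = 6.80e-06). Without Gln it was at 1254, 1271 and 1051 against 646, 589.8 and 673, a 1.87-fold rise (log2 0.90, SE 0.111, adjusted p = 1.08e-05). All treated cultures exceeded all controls. In tumors Mxd1 was at 1506, 1388 and 899 with DRP-104 and at 784, 824 and 695 with vehicle. The groups did not overlap and the log2 difference was 0.69 (95% interval 0.20 to 1.18), but it was not called over all genes (unadjusted p = 0.0115, adjusted p = 0.916). In the FPKM table of the tumors the difference was 0.02 (95% interval -0.49 to 0.54), with means of 13.2 ± 3.02 and 13.0 ± 3.07 (SD, n = 3). Whether the FPKM values come from the same tumors was not settled.

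Mxd3, an MXD member usually expressed in dividing cells, fell in both cultures. It was at 58.5, 46.2 and 40.3 after DON against 262, 298 and 211 in controls, and it fell by 2.39 on the log2 scale (SE 0.224, adjusted p = 3.97e-07). Without Gln the gene was at 41.8, 26.8 and 30.0 against 247, 282 and 204, and it fell by 2.87 (SE 0.235, adjusted p = 2.86e-07). The libraries held 26 to 50 reads of Mxd3 in treated cultures and 208 to 325 in controls. Mxd3 overlaps Prelid1 on the other strand on GRCm38, and whether strand was used in counting was not given in the sources used here, so reads of the overlap cannot be told apart. Prelid1 was at 10257 to 11079 after DON and at 14622 to 18268 in controls. Without Gln it was at 8553 to 8798 against 14102 to 17256, so it was lower in both cultures, like Mxd3. In tumors Mxd3 was at 101, 49.6 and 64.7 with DRP-104 and at 42.0, 109 and 41.4 with vehicle, with overlap and an interval of -0.88 to 1.38 on the log2 scale.

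Mxd4 and Mxi1, MXD members tied to quiescent and differentiating cells, changed in opposite directions in the cultures. Mxd4 was at 2107, 2430.4 and 2185 after DON against 1705, 1841 and 1533, and rose 1.32-fold (log2 0.41, SE 0.101, adjusted p = 0.00277). Without Gln it was at 1110.2, 1209 and 1200.1 against 1607, 1739 and 1478, and fell by 0.45 on the log2 scale (SE 0.0963, adjusted p = 0.00101). Neither comparison had overlapping groups. Mxi1 was at 1847, 2008 and 1978 after DON against 1367, 1465 and 1380.2, a 1.38-fold rise (log2 0.47, SE 0.0923, adjusted p = 0.000455). Gln-free cultures had it at 531, 740.3 and 686 against 1288, 1384 and 1331, and fell by 1.05 on the log2 scale (SE 0.125, adjusted p = 8.18e-06). Every Gln-free value of Mxi1 was below every control and every DON value above them. In tumors Mxd4 was at 1119, 1136 and 1271 with DRP-104 and at 1346, 1456 and 1326 with vehicle, without overlap, at a log2 difference of -0.23 (95% interval -0.53 to 0.08, adjusted p = 0.916). Mxi1 was at 3298, 3241 and 1707 with DRP-104 and at 2106, 3131 and 2978 with vehicle. DRP-104 tumor 3 had the lowest Mxi1 of the 6 tumors.

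Of the 10 genes, 2 had groups without overlap in tumors (Mxd1 and Mxd4), and 10.6% of all genes tested did. In the cultures it was 9 genes after DON, against 71.9% of all genes, and 9 without Gln, against 73.6%. Over all genes tested in the tumors, 775 had an unadjusted p under 0.05, edgeR called 0 and DESeq2 called 56, none of them among the 10.

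Mlx, the partner that MondoA needs for DNA binding, rose in both cultures. It was at 2155, 1863 and 1937 after DON against 1383, 1216 and 1116, a rise (log2 0.68, SE 0.107, adjusted p = 6.36e-05). Without Gln it was at 1613, 1549.7 and 1344 against 1304, 1149 and 1076, a 1.28-fold rise (log2 0.35, SE 0.107, adjusted p = 0.0104). The latter was the smallest called change of the 10 genes, and without Gln-free culture 1 it was not called (log2 0.30, adjusted p = 0.0551). Mlx overlaps Psmc3ip on the other strand, which was at 307 to 364 after DON and at 266 to 340 in controls. Without Gln Psmc3ip was at 160 to 266 against 251 to 320. In tumors Mlx was at 562, 528 and 617 against 569, 441 and 568, with overlap.

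Mlxip, the gene of the sensor MondoA itself, fell after DON only. It was at 838, 1070.2 and 1055 after DON against 1439.9, 1671 and 1308, and fell by 0.58 on the log2 scale (SE 0.125, adjusted p = 0.000968). Under Gln withdrawal it was at 1371, 1551 and 1418 against 1357, 1578 and 1262, an overlap with a log2 difference of 0.05 (95% interval -0.17 to 0.28, adjusted p = 0.671). In tumors it was at 1071, 910.1 and 1268 with DRP-104 and at 969, 1071 and 761 with vehicle, also with overlap (95% interval -0.22 to 0.65). The difference between DON and Gln-free cells was itself called and is given with the direct comparison.

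Txnip, which encodes the arrestin that binds thioredoxin and restrains glucose uptake, separated the treatments most. After DON it was at 1627, 833 and 1647 against 2223, 2320.4 and 1809.6 in controls, and fell by 0.69 on the log2 scale (SE 0.205, adjusted p = 0.00847). DON culture 2 was the lowest, and without it the log2 change was -0.36 (adjusted p = 0.0223). With DESeq2 on the recovered reads the fall was not called (log2 -0.63, adjusted p = 0.0767). Without Gln Txnip was at 9467, 10633 and 11089 against 2095, 2192 and 1745. The rise was 5.18-fold (log2 2.37, SE 0.101, adjusted p = 1.03e-09), with every Gln-free culture far above every control. The antisense gene Gm15441, which overlaps Txnip, was at 3.69 to 11.9 after DON and at 13.6 to 27.7 in controls, without overlap and lower like Txnip. Without Gln it was at 20.65 to 25.1 against 13.2 to 26.1. Reads of the overlap cannot be told apart without strand.

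In tumors Txnip varied more than any other of the 10 genes. It was at 2145, 1878 and 10598 with DRP-104 and at 3438, 2803 and 1029.96 with vehicle, a log2 difference of 0.70 (95% interval -0.88 to 2.28, adjusted p = 0.926). The highest value, in DRP-104 tumor 3, was more than the highest of the other 5 by a wide margin, and without this tumor the difference was -0.10 (adjusted p = 0.980). The same tumor had the highest level of 5 of 5 T cell markers. Their summed value was 1160 there and 35.8 to 70.6 in the other 5 tumors, and Cd8a was at 501 there, at 0 in the other DRP-104 tumors and at 0.93 to 1.79 with vehicle. Cd3e was at 120 there, at 3.57 in vehicle tumor 1 and at 0 in the other 4. The myeloid marker sum of this tumor (7498) lay within the range of the other 5 (3425 to 7852), and its fibroblast marker sum (18469) was the lowest. Its epithelial marker sum (191629) was the highest, against 125032 to 166714 in the other 5, with 4 of 7 markers highest there. The parts of T cells and of epithelial cells in the Txnip value were not tested. In a bulk tumor, fewer cells of a type and less RNA per cell cannot be told apart. Fibroblast marker sums were 18469 to 32268 in DRP-104 tumors and 39031 to 82817 in vehicle tumors, and their part in the tumor values of these genes was not tested. In the FPKM values, which carry no link to single tumors of the count table, Txnip was at 46.3 ± 0.596 with DRP-104 and 56.7 ± 27.4 with vehicle (SD, n = 3). The highest DRP-104 column there was 47.0, against 207 per kilobase and M reads in DRP-104 tumor 3, so the values disagree.

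Arrdc4, the other arrestin controlled by MondoA, was low in culture. It was at 23.9, 29.6 and 26.9 after DON against 30.2, 27.5 and 7.79 in controls, with overlap and no call (log2 0.48, 95% interval -0.57 to 1.53, adjusted p = 0.394). Control 3, the deepest library, held 12 reads, and without it the log2 difference was -0.11. Without Gln Arrdc4 was at 115, 159 and 92.1 against 28.4, 26.0 and 7.52, and rose 6.34-fold on the log2(value + 1) scale (log2 2.67, SE 0.432, adjusted p = 0.000117). All 3 Gln-free cultures (92 to 154 reads) were above all controls (12 to 24 reads), as for Txnip. In tumors it was at 145, 69.2 and 217 with DRP-104 and at 123, 177 and 70.3 with vehicle, again highest in DRP-104 tumor 3. The log2 difference there was 0.17 (95% interval -0.96 to 1.30), and without DRP-104 tumor 3 it was -0.20.

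**Figure D3:**
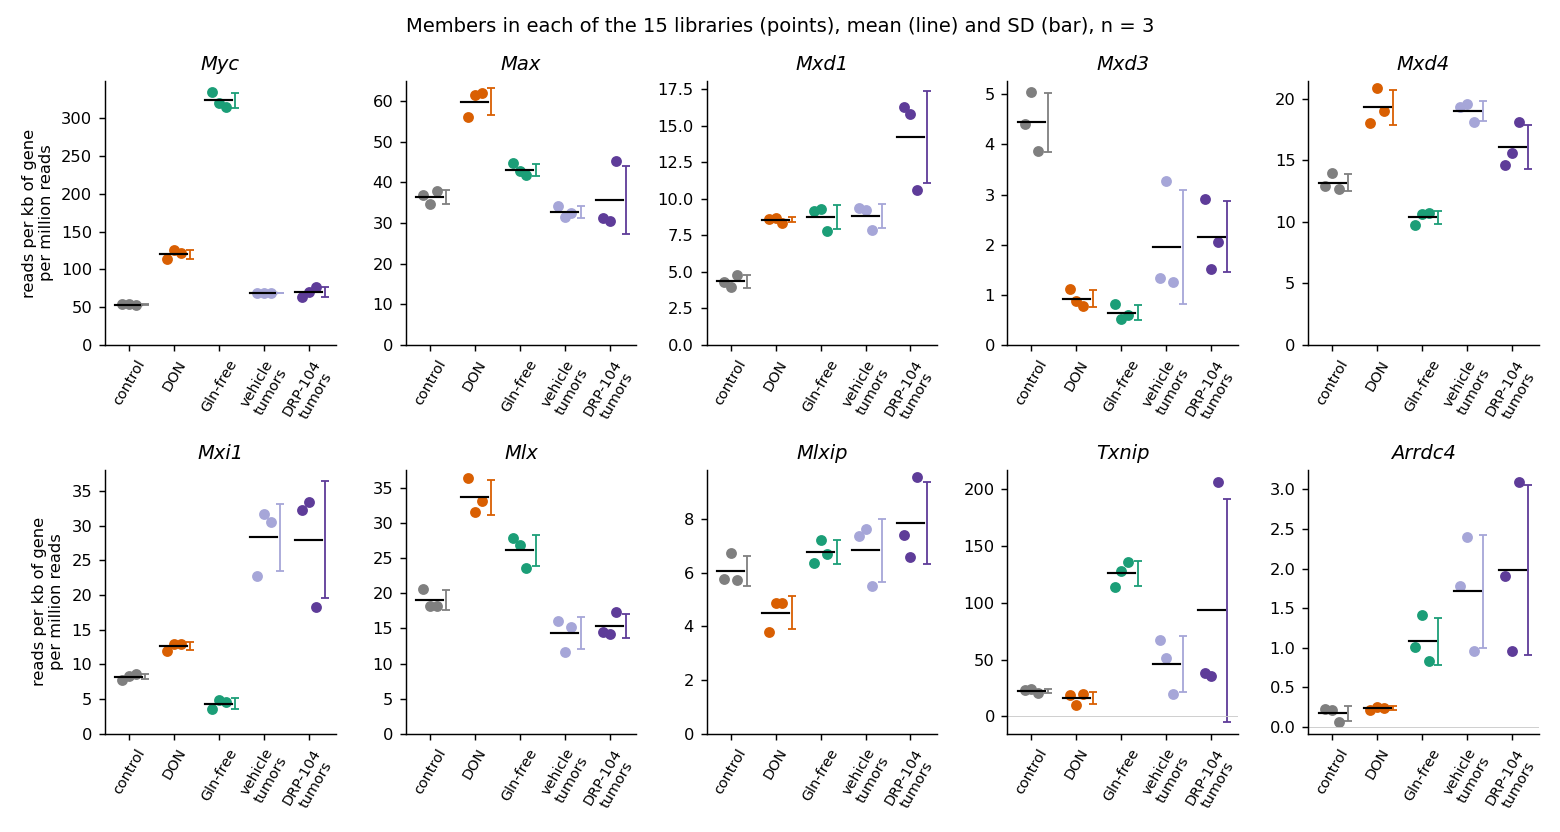
Levels of the 10 genes in the 15 libraries, as reads per kilobase of gene per M reads (points, libraries; line, mean; bar beside it, SD; linear axes that differ between panels). Gln-free cultures stand apart in Myc and Txnip, and DRP-104 tumor 3 stands apart in Txnip at 207.

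Per kilobase of gene and M reads, the order of levels showed which genes dominate in each setting. Myc was at 324 ± 10.2 in Gln-free cells, 120 ± 6.0 in DON cells, 70.3 ± 6.33 in DRP-104 tumors, 68.4 ± 0.232 in vehicle tumors and 53.4 ± 1.08 in control cells (SD, n = 3 in each). The DRP-104 and vehicle tumors were neighbors that overlapped, and the other neighbors did not. Txnip was at 126 ± 11.04 in Gln-free cells, 93.4 ± 98.1 in DRP-104 tumors, 46.2 ± 24.6 in vehicle tumors, 22.6 ± 1.89 in control cells and 16.2 ± 5.52 in DON cells, and only the last pair of neighbors did not overlap. Max was highest in DON cells (59.9 ± 3.31) and lowest in vehicle tumors (32.8 ± 1.41). Mxi1 was highest in tumors, at 28.3 ± 4.86 with vehicle and 27.97 ± 8.44 with DRP-104, and lowest in Gln-free cells, at 4.33 ± 0.736. Mxd3 was highest in control cells (4.44 ± 0.583), and every tumor and treated culture was below every control culture. Mlx ran from 33.7 ± 2.47 in DON cells to 14.3 ± 2.35 in vehicle tumors, and Mlxip from 7.86 ± 1.53 in DRP-104 tumors to 4.52 ± 0.611 in DON cells. Mxd1 ran from 14.2 ± 3.14 in DRP-104 tumors to 4.35 ± 0.426 in control cells, and Mxd4 from 19.3 ± 1.44 in DON cells to 10.4 ± 0.539 in Gln-free cells. Arrdc4 was the lowest of the 10 in control cells, at 0.168 ± 0.0900, and was at 1.99 ± 1.07 in DRP-104 tumors. Levels in cells and tumors come from tables scaled separately and tumors hold other cell types, so no test was made between them.

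Since the culture comparisons share the control libraries, DON and Gln-free cells were also compared directly, on reads scaled together over the 9 culture libraries. Of the 10 genes, 8 differed (4 higher in DON cells, 4 lower), and 63.3% of all genes tested did (31% higher, 32.3% lower). Txnip was at 1346 ± 455 in DON cells and 10519 ± 849 in Gln-free cells (SD, n = 3), lower in every DON culture (log2 -3.03, SE 0.190, adjusted p = 3.37e-09). Arrdc4 was at 26.3 ± 2.84 and 123 ± 34.4 (log2 -2.16, SE 0.417, adjusted p = 0.000330). Both MondoA targets were thus lower with DON than without Gln in every culture. Myc was at 8464 ± 428 in DON cells and 22880.3 ± 888 in Gln-free cells (log2 -1.44, SE 0.0742, adjusted p = 5.13e-10). Mlxip was at 972 ± 129 and 1464 ± 94.6 (log2 -0.60, SE 0.114, adjusted p = 0.000284).

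The genes higher in DON cells were the MXD members Mxi1 and Mxd4 and the partners Max and Mlx. Mxi1 was at 1912 ± 87.4 in DON cells and 659.9 ± 110 in Gln-free cells (log2 1.55, SE 0.111, adjusted p = 1.35e-08). Mxd4 was at 2204 ± 171 and 1187 ± 55.6 (log2 0.89, SE 0.0912, adjusted p = 5.65e-07). Max and Mlx differed less, by 0.47 (SE 0.0755, adjusted p = 6.17e-05) and 0.36 (SE 0.101, adjusted p = 0.00529) on the log2 scale. Mxd1, at 1176 ± 30.6 and 1206 ± 124, differed by -0.03 (95% interval -0.24 to 0.18, adjusted p = 0.790). Mxd3, at 47.5 ± 9.08 and 33.3 ± 7.95, differed by 0.51 (95% interval -0.02 to 1.04, adjusted p = 0.0848), and without Gln-free culture 1 it was called (log2 0.69, adjusted p = 0.0344).

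Whether the effect of DRP-104 in tumors differed from that of either culture treatment was tested as an interaction, with each treatment set against its own controls. These groups differ in agent, dose, duration and surroundings, which cannot be told apart. Each gene had a single spread fitted over tumors and cultures together. Fitted apart, the median residual SD was 0.315 in tumors, 0.162 for DON and controls, and 0.157 for Gln-free cells and controls. Against DON, 5 of the 10 genes differed, and 33.1% of all genes tested did. The effect on Myc was lower in tumors by 0.97 on the log2 scale (log2 -0.97, SE 0.136, adjusted p = 0.000141), and that on Mxd3 was 2.64 higher (SE 0.548, adjusted p = 0.00239). The effect on Mxd4 was lower (log2 -0.63, SE 0.157, adjusted p = 0.00717), as was that on Mlx (log2 -0.56, SE 0.195, adjusted p = 0.0399). That on Mlxip was higher (log2 0.79, SE 0.237, adjusted p = 0.0202). The calls of Mlx and Mlxip were not stable. Mlx was not called when any of DRP-104 tumors 1 or 2, vehicle tumors 1 or 3, any DON culture or controls 2 or 3 was left out (adjusted p = 0.0536 to 0.108). Mlxip was not called without vehicle tumor 3, DON culture 1 or control 2 (adjusted p = 0.0518 to 0.0600), and the number of these genes called was then 3. Max, not called with all libraries, was called without DRP-104 tumor 3 (log2 -0.61). For Txnip the difference was 1.39, with an interval of -0.33 to 3.11, and it was not called.

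Against Gln withdrawal, 4 of the 10 genes differed, and 36.7% of all genes tested did. The effect on Myc was lower in tumors (log2 -2.44, SE 0.132, adjusted p = 2.30e-07), as was that on Arrdc4 (log2 -2.50, SE 0.745, adjusted p = 0.0182). The effects on Mxd3 (log2 3.11, SE 0.556, adjusted p = 0.000827) and Mxi1 (log2 1.01, SE 0.326, adjusted p = 0.0268) were higher. The call of Mxi1 was lost without DRP-104 tumors 1 or 2, vehicle tumor 1, Gln-free culture 1 or control 2 (adjusted p = 0.0582 to 0.0737). Txnip differed by -1.67 (95% interval -3.31 to -0.03) and was not called (adjusted p = 0.103). Without DRP-104 tumor 3, the tumor with the highest T cell marker sum, it was called (log2 -2.47, adjusted p = 0.000892), and likewise without vehicle tumor 3 (log2 -2.20, adjusted p = 0.0329). The differences of Myc and Mxd3 were called whichever library was left out.

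**Figure D4:**
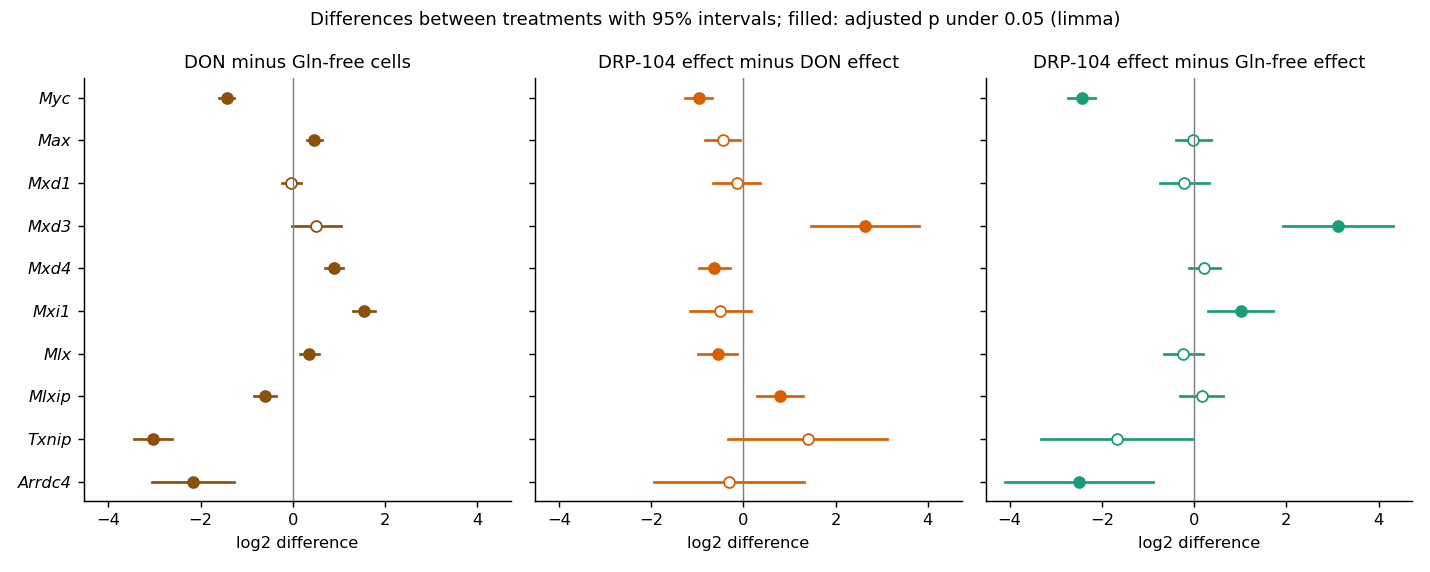
Differences between treatments with 95% intervals for the 10 genes (filled points, adjusted p under 0.05 by limma), for DON against Gln-free cells and for the effect in tumors against each culture effect. Txnip lies furthest below 0 in the direct comparison at -3.03, and Myc and Mxd3 are filled on opposite sides of 0 in both comparisons with tumors.

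The remaining genes of the network were followed through lists chosen by function. Of 6 other MYC network genes, 5 could be tested in culture, and 2 rose and 2 fell in each. Mga, which encodes a MAX partner that represses germline genes, rose after DON (log2 1.04, SE 0.159, adjusted p = 4.93e-05) and without Gln (log2 1.73, SE 0.165, adjusted p = 1.12e-06). Zbtb17, the gene of the MYC cofactor MIZ1, rose after DON (log2 0.42, adjusted p = 0.00308) and fell without Gln (log2 -0.33, adjusted p = 0.0188). Mycn fell in both from a low level, 32.4 ± 15.3 to 3.27 ± 2.84 with DON and 30.7 ± 14.3 to 3.42 ± 3.17 without Gln (SD, n = 3). Mnt, a MAX-binding repressor, rose without Gln (log2 0.61, adjusted p = 0.000326) and was at log2 0.21 after DON (adjusted p = 0.117). Mycl fell after DON (log2 -0.97, adjusted p = 0.00485) and was at log2 -0.48 without Gln (adjusted p = 0.135). Mlxipl, the gene of ChREBP, could be tested only in tumors, where no gene of any list was called.

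Of 10 subunits of the SIN3 corepressor that MXD proteins recruit, 1 rose and 7 fell after DON, and 3 rose and 5 fell without Gln. Hdac1, a deacetylase, fell by 1.49 after DON (adjusted p = 3.56e-09) and by 1.12 without Gln (adjusted p = 1.12e-07) on the log2 scale. Rbbp7, a histone-binding subunit, fell by 1.25 (adjusted p = 8.33e-09) and by 1.12 (adjusted p = 4.34e-08). Sin3b, a scaffold, rose in both (log2 0.53, adjusted p = 0.000131, and log2 0.64, adjusted p = 1.56e-05). Arid4b rose without Gln (log2 2.02, SE 0.180, adjusted p = 5.69e-07) and was lower in DON than in Gln-free cells (log2 -1.71, adjusted p = 5.80e-07), as was Sap30 (log2 -0.38), while Sin3a was higher in DON cells (log2 0.44).

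Of 15 cofactors and turnover factors of MYC, 5 rose and 3 fell after DON, and 5 rose and 6 fell without Gln. Aurka, a mitotic kinase that can stabilize MYC family proteins, fell after DON (log2 -2.29, adjusted p = 4.18e-10) and without Gln (log2 -1.90, adjusted p = 3.72e-09). Trim32, a ubiquitin ligase, rose in both (log2 1.14, adjusted p = 1.36e-07, and log2 0.31, adjusted p = 0.0129). Ep400, a chromatin remodeler, rose after DON (log2 0.73, adjusted p = 8.00e-05) and fell without Gln (log2 -0.31, adjusted p = 0.0134). Usp28, a deubiquitinase, fell in both (log2 -0.86, adjusted p = 2.88e-05, and log2 -0.79, adjusted p = 8.50e-05). Without Gln, Trrap, a scaffold of acetyltransferases that MYC recruits, fell by 0.98 (adjusted p = 3.65e-06) and Bptf, a remodeler subunit, and Ruvbl1, a helicase, rose (log2 0.72, adjusted p = 0.000136, and log2 0.33, adjusted p = 0.00473). Ep400 and Trim32 were higher in DON than in Gln-free cells (log2 1.07 and 0.87).

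Of 25 MYC-activated genes of the nucleolus and ribosome production, 12 rose and 5 fell after DON, and 19 rose and 5 fell without Gln. Their median log2 change was 0.20 and 0.43, beside 0.02 and 0.01 over all genes tested. Npm1, a nucleolar chaperone, rose most after DON, from 26190 ± 4176 to 45322 ± 685 (log2 0.80, adjusted p = 2.35e-05), and also rose without Gln (log2 0.59, adjusted p = 0.000505). Nop58, a core protein of small nucleolar ribonucleoproteins, rose most without Gln, from 3473 ± 683 to 10282 ± 792 (log2 1.58, adjusted p = 1.48e-07), and was lower in DON than in Gln-free cells (log2 -1.51, adjusted p = 1.05e-08). Polr1b and Noc4l fell in both cultures, by log2 changes of -0.52 and -0.53 after DON and -0.42 for each without Gln. Wdr12 and Rrs1, factors of large subunit assembly, rose in both, by log2 changes of 0.73 and 0.63 after DON and 0.28 and 1.132 without Gln. In the direct comparison Wdr43 was lower in DON cells (log2 -1.04) and Wdr12 and Nop16 higher (log2 0.49 and 0.35). In tumors the median of this list was -0.10, beside -0.01 over all genes.

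Of 18 MYC-activated genes of metabolism and the cell cycle, 7 rose and 6 fell after DON, and 4 rose and 11 fell without Gln. Ldha, which encodes the lactate dehydrogenase subunit often cited as a MYC target, fell after DON (log2 -2.63, adjusted p = 1.17e-10) and without Gln (log2 -2.32, adjusted p = 9.54e-10), while Myc itself rose. Impdh2, an enzyme of guanine nucleotide synthesis, rose after DON from 10531 ± 1282 to 34989 ± 3553 (log2 1.73, adjusted p = 7.69e-09), and fell without Gln (log2 -0.60, adjusted p = 8.00e-05). Srm, spermidine synthase, rose in both (log2 0.39, adjusted p = 0.00140, and log2 0.69, adjusted p = 2.55e-05), and Tfrc, the transferrin receptor, fell in both (log2 -0.36, adjusted p = 0.0208, and log2 -1.50, adjusted p = 4.42e-07). E2f1 rose and E2f2 fell after DON (log2 0.79, adjusted p = 1.91e-05, and log2 -2.60, adjusted p = 2.73e-09), and both fell without Gln (log2 -0.62, adjusted p = 8.09e-05, and log2 -0.37, adjusted p = 0.00921). In the direct comparison Impdh2 and E2f1 were higher in DON cells (log2 2.37 and 1.45) and E2f2 lower (log2 -2.20).

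Of 8 MYC-repressed genes, 4 rose and 4 fell after DON, and 3 rose and 3 fell without Gln. Gadd45a, a stress gene, rose in both (log2 2.92, adjusted p = 3.96e-11, and log2 1.43, adjusted p = 2.28e-07), and Cdkn1a, the gene of the cell cycle inhibitor p21, rose after DON (log2 0.90, adjusted p = 2.00e-06) and without Gln (log2 1.46, adjusted p = 2.45e-08). Ndrg1, another stress gene, also rose in both (log2 1.79, adjusted p = 1.17e-09, and log2 1.10, adjusted p = 2.32e-07). Ndrg2 and Thbs1 fell in both. The log2 changes after DON and without Gln were -4.14 and -2.84 for Ndrg2 and -2.24 and -1.24 for Thbs1. Against Gln-free cells, DON cells had more Cdkn2b (log2 0.94) and less Cebpa (log2 -1.41).

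Of 14 other MondoA and ChREBP targets listed, 9 could be tested in culture, and 1 rose and 8 fell in each comparison, with medians of -1.52 after DON, where Txnip fell, and -1.32 without Gln, where Txnip rose. The gene that rose differed. Klf10, a transcription factor and an immediate target of glucose-responsive factors, was at 514, 639.9 and 610.3 after DON against 1797, 1595 and 1651, and fell by 1.52 on the log2 scale (SE 0.113, adjusted p = 4.00e-08). Without Gln it was at 3098, 2801 and 2799 against 1694, 1506 and 1592, and rose (log2 0.86, SE 0.0888, adjusted p = 2.25e-06). In the direct comparison Klf10 was lower in DON cells by 2.34 (log2 -2.34, SE 0.0973, adjusted p = 6.35e-11). Khk, ketohexokinase, did the reverse, with a rise after DON (log2 0.85, adjusted p = 3.90e-05) and a fall by 1.68 without Gln (adjusted p = 2.01e-07). Pklr, the liver-type pyruvate kinase and a ChREBP target, fell in both (log2 -4.06 and -3.76), as did Gpd1, a glycerol phosphate dehydrogenase (log2 -3.42 and -3.94). Genes of fatty acid synthesis (Fasn, Acaca, Scd1 and Elovl6) fell in both, and these have other regulators as well, among them SREBP.

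Of 3 other alpha-arrestins tested, all fell after DON, and 1 rose and 2 fell without Gln. Arrdc3, an arrestin that promotes receptor degradation, was at 466, 373 and 337 after DON against 757, 820.5 and 1189.9, and fell by 1.22 on the log2 scale (SE 0.171, adjusted p = 2.33e-05). In the Gln-free cultures its values were 2083, 1866 and 2021 against 713, 775 and 1148, and it rose (log2 1.21, SE 0.150, adjusted p = 1.13e-05). The direct difference was -2.39 (SE 0.154, adjusted p = 4.39e-09). Arrdc1 and Arrdc2 fell in both cultures, with log2 changes of -1.45 and -1.09 after DON and -1.32 and -1.19 without Gln. Like Txnip, Arrdc3 and Klf10 were lower in every DON culture than in every Gln-free culture.

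Of 10 genes listed around thioredoxin and glucose uptake, 8 could be tested in culture. After DON 1 rose and 6 fell, and without Gln 1 rose and 7 fell. Txn2, mitochondrial thioredoxin, rose in both (log2 0.80, adjusted p = 5.01e-06, and log2 0.98, adjusted p = 6.24e-07). Hk1, a hexokinase, fell in both (log2 -1.38 and -1.21), as did Ddit4, a stress inhibitor of mTORC1 (log2 -2.01 and -2.97). Ddit4 and Txnrd2, mitochondrial thioredoxin reductase, were higher in DON than in Gln-free cells (log2 1.00 and 0.79). Slc2a1, the gene of the glucose transporter that TXNIP restrains, fell by 0.52 (adjusted p = 0.000162) and by 1.01 (adjusted p = 2.96e-07), both as log2 changes, so it fell in DON cells with lower Txnip and in Gln-free cells with higher Txnip. Hk2 stood in this list and in the list of MYC-activated metabolic genes.

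Of 12 other factors that bind E-boxes, 11 could be tested after DON, where 6 rose and 4 fell, and 10 without Gln, where 3 rose and 5 fell. Tfeb, a lysosomal regulator, fell by 1.87 after DON (adjusted p = 9.98e-08) and by 1.28 without Gln (adjusted p = 7.47e-06). Bhlhe41, a repressor of the clock, rose in both (log2 0.93, adjusted p = 5.93e-07, and log2 2.01, adjusted p = 7.09e-10). Srebf1, the regulator of fatty acid synthesis, fell in both (log2 -1.14, adjusted p = 3.64e-07, and log2 -1.65, adjusted p = 5.85e-09), and Clock rose in both (log2 0.87, adjusted p = 0.00126, and log2 2.02, adjusted p = 1.48e-06). Mitf rose after DON from 2.11 ± 2.61 to 45.8 ± 10.8 (log2 4.25, adjusted p = 6.88e-05), and Bhlhe40 fell in both (log2 -1.29, adjusted p = 3.49e-08, and log2 -0.70, adjusted p = 7.12e-06).

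As for the effect in tumors against that in culture, only some of the called genes of the lists are named here. Higher and lower here compare the DRP-104 effect with the culture effect and not levels. No gene of any list was called in the tumors themselves. Of all genes tested, 33.1% differed against DON and 36.7% against Gln withdrawal. In the MondoA and ChREBP list, 8 of 12 were higher and 0 lower against DON, and 9 of 11 higher and 1 lower against Gln withdrawal. There Pklr was higher (log2 4.80 against DON, 4.50 against Gln withdrawal), and Klf10 was lower against Gln withdrawal (log2 -0.87, adjusted p = 0.000866). Of the 25 nucleolar genes, 1 was higher and 8 lower against DON, and 1 higher and 13 lower against Gln withdrawal. The DRP-104 effect on Arrdc3 was higher than that of DON (log2 1.36) and lower than that of Gln withdrawal (log2 -1.07). For Arrdc1 it was higher than both (1.612 and 1.48). Within the tumors, the log2 changes of the 3 other alpha-arrestins tested ran from -0.08 to 0.16. Ldha (2.66 and 2.35), Aurka (2.16 and 1.77) and Hdac1 (1.53 and 1.16) were higher against both, as were Ndrg2 (4.20 and 2.90) and Mycn (4.52 and 4.43). Mycn was near the floor in treated cultures, at 0 to 5.04 after DON and 0 to 6.27 without Gln. Gadd45a (-3.47 and -1.99), Rrs1 (-0.89 and -1.39) and Mga (-0.93 and -1.62) were lower against both.

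**Figure D5:**
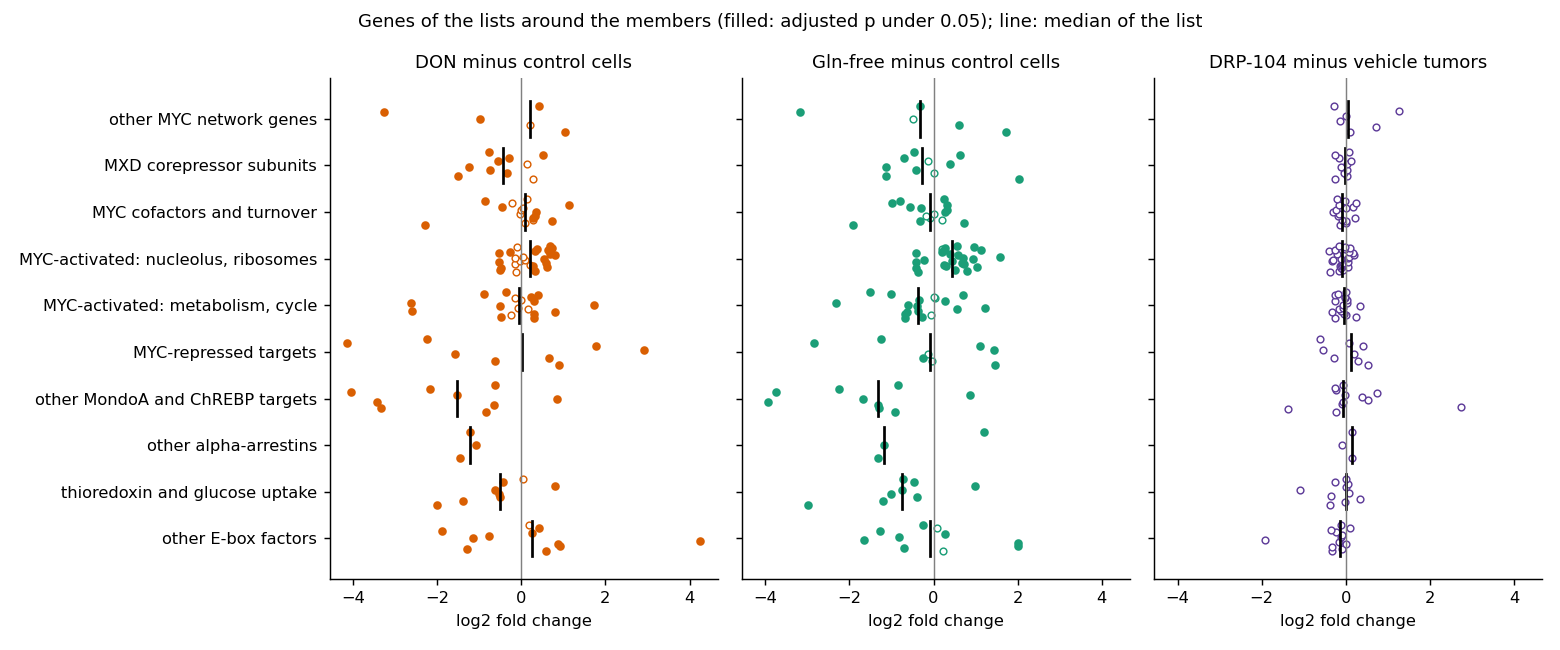
Log2 fold changes of the genes in the 10 lists in the 3 treatment comparisons (points, genes; filled, adjusted p under 0.05 by limma; black line, median of the list). The medians of the MondoA and ChREBP list lie at -1.52 and -1.32 in the cultures, that of the nucleolar list is 0.43 without Gln, and no point is filled in the tumors.

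Genes with the most similar profile were ranked over the 9 culture libraries, among 10431 genes with a mean of at least 100, as a description. Points of a group share a treatment, so these correlations mostly reflect the 3 group levels. Closest to Txnip were Sox2 (r = 0.989), Dusp5 (r = 0.988), Dll1 (r = 0.987), Enc1 (r = 0.982) and Irak2 (r = 0.982). Dusp5, an ERK phosphatase, was at a mean of 4047 in controls, 3149 in DON cells and 12680.3 in Gln-free cells. Closest to Myc were Got1 (r = 0.997), Sprtn (r = 0.997), Ankrd1 (r = 0.996), Hspa9 (r = 0.996) and Hspa5 (r = 0.995). Got1, the cytosolic aspartate aminotransferase, was at 4223, 5781 and 8530 in the same order, and Hspa5, the ER chaperone BiP, at 22534, 42826 and 118454.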

How the data were processed

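Bulk RNA was purified with TRIzol and spin columns. Library preparation, HISAT2 alignment and DESeq2 were done for the authors at Novogene. The submitters' processing notes also name STAR 2.5, CASAVA and GRCm39, but gene coordinates in the authors' FPKM table are those of GRCm38. The counting tool and strand setting were not given in the sources used here.

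The deposited signal in each comparison table is a gene count divided by 1 size factor per library. Dividing by the worth of 1 read (tolerance 0.0051) gave whole reads for at least 99.9944% of values. Even numbers made up 69.6% to 72.7% of genes with 1 to 20 reads in cultures and 41.9% to 46.5% in tumors. The cause was not tested, so a read may not count the same unit in cultures and in tumors. The authors' FPKM values, for tumors only, were also fitted as an alternative, but they disagree with the counts. Txnip was at 45.9 to 47.0 in the DRP-104 columns of the FPKM values. In the counts, DRP-104 tumor 3 was at 207 per kilobase and M reads. Whether both come from the same tumors was not settled. Columns of fold changes and p-values by the authors were not used. Control columns of both culture tables are headed as vehicle and were taken as control cells from the name of each table; the tumor table has vehicle columns of its own with other values.

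Genes averaging at least 10 were tested as log2(value + 1) by limma 3.58.1 (lmFit, eBayes with trend, R 4.3.3). Interactions used the values of both tables, and DON was set against Gln-free cells after scaling the 9 culture libraries together by the median of ratios. Alternatives were edgeR 4.0.16 and DESeq2 1.42.0 on recovered reads, edgeR on reads divided by 2, pseudocounts of 0.5 and 5, no filter or a mean of at least 50, quantile normalization, a threshold of 0.01, a replicate block, leaving out each library, and, for DON against Gln-free cells, leaving out the control cultures. The tests were also run on simulated counts, and the outcome is not given here. The genes and lists were chosen with earlier results of these data known. Named genes are the 10, and in each list the 2 largest called rises and falls in a comparison, with lists of up to 6 genes named whole; for the interactions and the direct comparison only some of these are printed, chosen after their values were seen, as were Slc2a1, Acaca and Scd1. Promoters come from RefSeq, GRCm38.p6. Python 3.11.15 with numpy 2.4.6, pandas 2.3.3 and matplotlib 3.10.9 handled tables and plots. Some items that the rule would name are not reported here.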

Additional observations from a re-analysis of the deposited data

Results flagged for a closer look

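The effect of DRP-104 in tumors and that of a culture treatment differed for 7 of the 10 genes in at least 1 of 2 interaction tests with limma, on the log2 scale and adjusted over all genes. Against DON, the differences were -0.97 for Myc (adjusted p = 0.000141), 2.64 for Mxd3 (adjusted p = 0.00239), -0.63 for Mxd4 (adjusted p = 0.00717), -0.56 for Mlx (adjusted p = 0.0399) and 0.79 for Mlxip (adjusted p = 0.0202). Against Gln withdrawal, they were -2.44 for Myc (adjusted p = 2.30e-07), 3.11 for Mxd3 (adjusted p = 0.000827), 1.01 for Mxi1 (adjusted p = 0.0268) and -2.50 for Arrdc4 (adjusted p = 0.0182). Both tests use the same 6 tumors and the same 3 control cultures, so they are not independent of each other. Groups of 3 are too small for a test of single libraries that stand apart.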

How the results depend on the processing

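Of 1129 refits of single genes, 1064 kept their direction and side of the threshold, 27 lost a call, 4 gained a call and 34 changed sign. All sign changes were of differences that were not called. Without a given library the number of genes called ran from 9 to 9 for DON, 7 to 8 for Gln withdrawal, 0 to 0 for tumors, 8 to 9 for DON against Gln-free cells, and 3 to 6 (against DON) and 3 to 5 (against Gln withdrawal) for the interactions. At a threshold of 0.01 the interactions called 3 and 2 genes.

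In tumors, Mxi1 (-0.04) was 0.0065 after quantile normalization, 0.011 with edgeR, 0.010 with edgeR on divided reads and 0.012 with DESeq2. In the FPKM table Mxi1 was 0.057, Mxd3 -0.13, Mlx -0.097 and Txnip -0.19. The FPKM values disagree with the counts for Txnip, so these differences may not reflect processing alone. With a library left out, tumor differences ran from -0.21 to 0.28 for Mxi1, -0.0236 to 0.71 for Mxd3, -0.0374 to 0.22 for Max, -0.0015 to 0.18 for Mlx, -0.0987 to 1.15 for Txnip and -0.20 to 0.62 for Arrdc4. In cultures the ranges were -0.11 to 0.81 for Arrdc4 after DON and -0.0185 to 0.14 for Mlxip without Gln. Between DON and Gln-free cells, Mxd1 was 0.030 after quantile normalization and ran from -0.12 to 0.0172. In the interaction with Gln withdrawal, Max was 0.084 after quantile normalization, 0.028 with edgeR, 0.025 with edgeR on divided reads and 0.0071 with DESeq2, and ran from -0.17 to 0.0870, and Mxd1 ran from -0.36 to 0.0146. In that with DON, Arrdc4 ran from -0.68 to 0.27 and Mxd1 from -0.29 to 0.0788. The cause was not tested.

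No pairing by replicate number was evident, though groups of 3 are too small to exclude it. Control cultures carry the numbers of their column headings, which were not matched to sample titles. Correlations of deviations between libraries of the same number were 0.0031 to 0.0334 for DON and controls. They were -0.0317 to 0.0270 for Gln-free cells and controls, and -0.36 to 0.0379 in tumors. Not every library correlated best with its own number. With the replicate block, 9, 8, 0 and 8 genes were called in the comparisons of groups, and 4 and 3 in the interactions, where Mlxip (adjusted p = 0.0575) and Mxi1 (adjusted p = 0.0508) were not called. At 16.3 to 20.7 M reads and 3 tumors a group, changes inside the wide intervals were not detectable. For Mxd3, with 43 to 118 reads, the interval in tumors was -0.88 to 1.38. Falls as large as those of Mxd3 in culture (log2 -2.39 and -2.87) lay outside it.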
